A study of Mus musculus with 18 samples.

Results

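The 6 libraries described here hold RNA from cultured mouse tendon cells, 3 from neonatal and 3 from adult tendons, that were grown in complete medium with an equal volume of T cell medium, free of T cell products. They were chosen by their labels and are 6 of the 18 libraries of the series, whose other 12 received supernatant (medium conditioned by stimulated T cells) from adult or neonatal donors, with 3 libraries for each cell age and supernatant. The title of the series names the regenerative potential of neonatal cells and their own resistance to inflammation as its subject, for which the media libraries are the baseline. All cells are labelled WT fibroblasts of tendon, and all 18 libraries carry the same batch date.

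Per the labels' protocols, cells from 4 adult or 3 neonatal tendons went into each gelatin-coated well, so a culture pooled several tendons. Digests were broken up by vortexing for neonates and by pipetting for adults. The cells were passaged 2 times, frozen, thawed and grown for 3 days before treatment, so the libraries describe expanded cultures and not tissue. The labels give no strain, sex, age in days or length of treatment. The labels do not say whether the libraries of a group came from separate cultures or animals, and p-values therefore measure only the spread between these samples, which may be technical.

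Tendon is built by fibroblasts called tenocytes, which secrete type I collagen together with small proteoglycans and glycoproteins that space and align its fibrils. The transcription factors Scx and Mkx mark and direct this lineage in mice, and the membrane protein Tnmd appears in differentiated tenocytes. In mice, neonatal tendon is known to heal with less scar than adult tendon, and tendon cells of neonates divide more than those of adults.

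Estimated depth was 15.8 to 17.5 M reads per media library, at which 3 reads would equal 0.172 to 0.190 CPM (counts scaled to a common library total). That is without the offset of 2 reads that the deposited values include, so 3 reads stand higher among the values printed here. Across genes, log2 CPM correlated at 0.975 to 0.982 between libraries of the same age and at 0.954 to 0.966 between ages. The leading principal component of the 6 libraries held 49.2% of the variance and separated the ages. The next, with 16.2%, separated neonatal library 1 from neonatal library 3.

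A pair of media libraries stood apart, adult library 2 and neonatal library 1, in which genes induced by type I interferon were high. Of 40 measured interferon-stimulated genes, 30 in adult library 2 and 31 in neonatal library 1 exceeded the mean of the other 2 libraries of their group by over 1 log2 unit, and 28 did so in both. Among all genes the shares were 3.31 and 2.79%. The pair was known beforehand from these same genes, so the counts describe it and test nothing. Results are given with all 6 libraries. Values without this pair are given for some genes and lists, and others may also have changed.

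Between neonatal and adult cells 4122 of 14391 genes were called at an adjusted p under 0.05 in limma, or 28.6%, and 890 of them differed at least 2-fold. Neonatal cells were higher for 2398 genes (16.7%) and lower for 1724 (12.0%), and for 2100 and 1924 with TMM-like scaling. The median difference of all genes was 0.01 log2. The 3 and 3 libraries did not overlap for 6121 genes (42.5%), with neonatal cells higher for 23.8% and adult cells for 18.7% of all genes. A lack of overlap was therefore common. Without the interferon-high pair 2322 genes were called (16.1%), 1385 higher (9.62%) and 937 lower (6.51%). Of the 2398 higher genes 1323 were still called, as were 897 of the 1724 lower ones, and every gene of both sets kept its sign. Differences below are neonatal minus adult on the log2 CPM scale, with the standard error of the fit. They understate the change of genes near the lowest value, 0.127 CPM. Counts of list members below are to be read beside the shares of all genes given here, with or without the pair. Against 28.6% of all genes, 37.9% of collagen, 36.6% of TGF-beta and BMP and 19.05% of MHC class I list members were called.

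**Figure D1:**
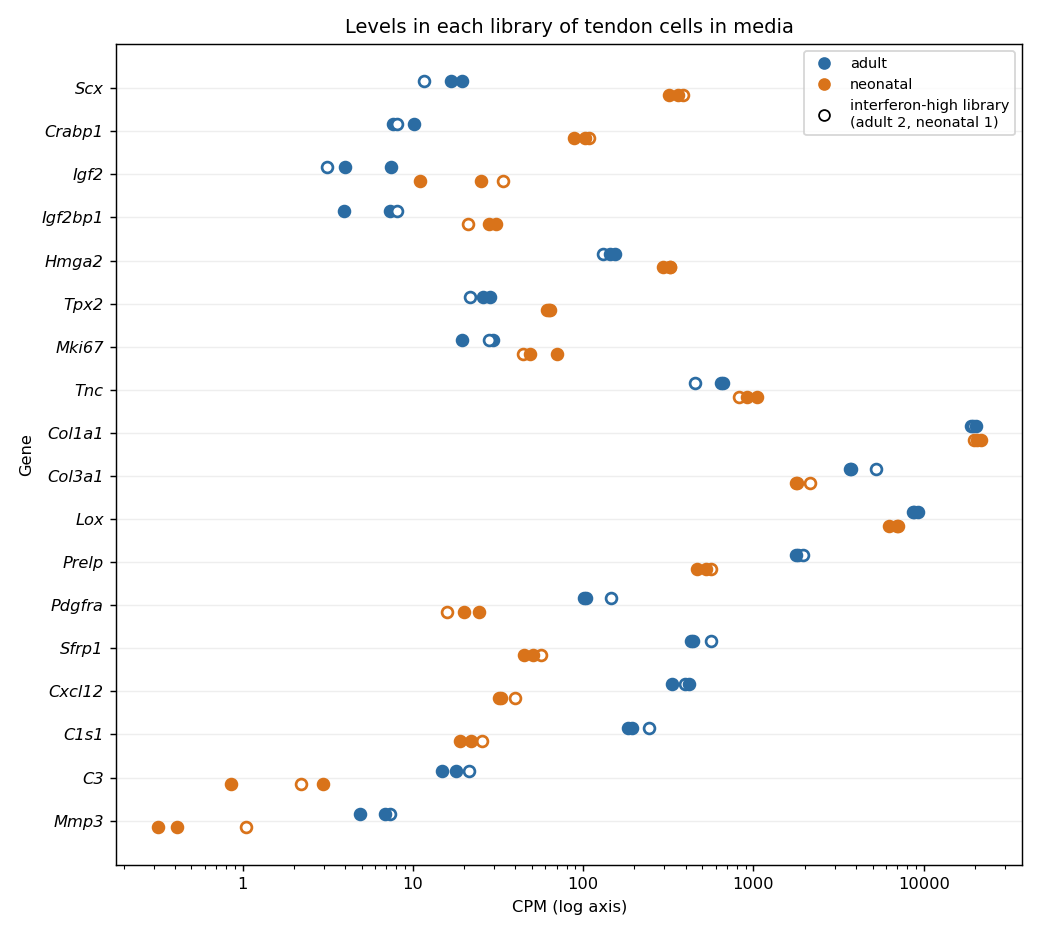
CPM (log axis) of 18 genes in each media library, adult in blue and neonatal in orange, 1 point per library, with the interferon-high pair as open points. The ages are apart for Scx, Crabp1, Cxcl12, Prelp and Pdgfra and overlap for Col1a1.

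The fibroblast label was checked against 12 markers, all of which were measured. Col1a1, the main chain of type I collagen, stood at 18805, 19578 and 20332 CPM in adult libraries 1 to 3 and at 19684, 20557 and 21747 CPM in neonatal libraries 1 to 3. The ages overlapped, and the difference of 0.08 ± 0.10 (SE, adjusted p = 0.61) was not called. Of the 12 markers 3 were higher and 5 lower in neonatal cells, and Tnmd stayed between 8.04 and 18.1 CPM in all 6 libraries.

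The tendon transcription factors went both ways. Scx (scleraxis) had 16.7, 11.6 and 19.4 CPM in the adult libraries and 384, 359 and 317 CPM in the neonatal ones, with a wide gap between the ages. It rose by 4.50 ± 0.22 (SE, adjusted p = 7.4e-10) and was the largest rise among genes of this list. Mkx (mohawk) read 4.29, 4.86 and 8.34 CPM in adult and 9.66, 14.8 and 14.2 CPM in neonatal cells, again without overlap, a rise of 1.18 ± 0.27 (SE, adjusted p = 0.00342). Six2, a homeobox factor of developing limb tendon, rose from a low level by 2.58 ± 0.42 (SE, adjusted p = 0.000238). In all, 4 of 15 measured members were higher and 3 lower, the latter Ebf1 (-0.59 ± 0.10), Klf4 (-0.50 ± 0.10) and Nfatc4 (-0.31 ± 0.08). Klf2 was the other higher member (0.86 ± 0.19), a call that ended without the interferon-high pair (adjusted p = 0.0586). Tnmd was higher in every neonatal library, as were 23.8% of all genes, and its difference of 0.74 ± 0.30 (SE, adjusted p = 0.0755) was not called.

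Most tendon matrix and surface genes that changed were lower in neonatal cells, 12 of 22 against 3 that were higher, with a list median of -0.60. The counts were 9 and 1 without the interferon-high pair. Pdgfra, the receptor that marks many connective tissue fibroblasts, had 101, 145 and 104 CPM in adult and 15.8, 20.0 and 24.5 CPM in neonatal libraries. The neonatal values lay far below the adult ones, and Pdgfra fell by 2.54 ± 0.15 (SE, adjusted p = 6.51e-09). Cilp, an intermediate-layer matrix protein of cartilage and tendon, differed by -2.69 ± 0.35 (SE, adjusted p = 2.92e-05). Mfap5 (-0.89 ± 0.09), a microfibril protein, and Comp (-0.62 ± 0.11), which helps collagen fibrils assemble, also fell. The higher members were Tnc, Thbs4 and Htra1. Tnc (tenascin C), a matrix protein of developing and injured tendon, stood at 641, 454 and 664 CPM in adult and 819, 910.2 and 1044 CPM in neonatal cells and rose by 0.67 ± 0.16 (SE, adjusted p = 0.00465). Thbs4, a thrombospondin of the tendon matrix, rose by 0.97 ± 0.28, which ended as a call without the interferon-high pair (adjusted p = 0.121).

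Of 29 collagen genes 4 were higher and 7 lower, with a median of -0.23. Without the interferon-high pair 4 were higher and 5 lower, and the median became 0.06. Col3a1, the fine-fibril collagen of skin, vessels and healing tissue, had 3729.5, 5212 and 3689 CPM in adult and 2138, 1803 and 1779.6 CPM in neonatal libraries. It was lower in every neonatal library and fell by 1.13 ± 0.15 (SE, adjusted p = 4.42e-05). Col14a1, a collagen bound to fibril surfaces, fell from 199, 278 and 197 to 39.3, 40.5 and 45.6 CPM, a difference of -2.41 ± 0.25 (SE, adjusted p = 2.91e-06), and Col8a1, a short-chain network collagen, fell by 1.16 ± 0.07. Col1a2, the other type I chain, was not called (-0.17 ± 0.10), and its sign turned with quantile normalization (0.07). Col11a1 (0.66 ± 0.14), Col18a1 (0.75 ± 0.25), Col10a1 (1.18 ± 0.25) and Col2a1 were higher. Col2a1 and Col10a1 are cartilage collagens, and Col2a1 was at 0.833, 0.327 and 1.41 CPM in adult and 7.53, 10.6 and 12.6 CPM in neonatal cells.

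The small leucine-rich proteoglycans, which bind collagen fibrils and set their width, had 1 higher and 6 lower members of 12, and 0 and 3 without the interferon-high pair. Prelp read 1834, 1953 and 1778 CPM in adult and 562, 526 and 466 CPM in neonatal libraries, no value of an age coming near the other, and fell by 1.84 ± 0.08 (SE, adjusted p = 1.42e-10). Dcn (decorin) fell by 1.45 ± 0.32 (SE, adjusted p = 0.0024) and Podn (-1.27 ± 0.31), a podocan, was lower too. Among elastic fibre and crosslinking genes 9 of 33 were higher and 10 lower, and 8 and 6 without the pair. Ltbp1, which stores latent TGF-beta in the matrix, rose by 1.28 ± 0.10 (SE, adjusted p = 1.95e-07). Fbn2, the fibrillin of fetal tissue, rose by 1.53 ± 0.23. Lox, the collagen crosslinking oxidase, fell by 0.39 ± 0.07 (SE, adjusted p = 0.000381) from 9219.8, 8787 and 8662 to 7002, 7055 and 6271 CPM, and Efemp1 (fibulin 3) fell by 1.38 ± 0.14.

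Matrix proteases and their inhibitors were lower in neonatal cells for 18 of 33 members and higher for 2, with a median of -0.53. Mmp3 (stromelysin 1) had 4.92, 7.37 and 6.91 CPM in adult and 1.04, 0.414 and 0.317 CPM in neonatal cells and fell by 3.61 ± 0.43 (SE, adjusted p = 1.22e-05). Adamts5, an aggrecan-cutting protease, fell from 685, 906 and 695 to 341, 323 and 300.5 CPM, a difference of -1.23 ± 0.11 (SE, adjusted p = 4.67e-07). Adamts2 (-1.46 ± 0.14), which trims procollagen, Mmp2 (-0.96 ± 0.11), a gelatinase, Mmp11 (-1.15 ± 0.12) and the inhibitor Timp3 (-1.17 ± 0.14) fell as well. Adamts15, another aggrecanase, differed by -3.90 ± 0.33 (SE, adjusted p = 3.1e-07). Mmp16 (0.49 ± 0.17), a membrane-bound protease, was higher, a call that ended without the interferon-high pair (adjusted p = 0.0946). Without the pair 14 members were lower and 0 higher.

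**Figure D2:**
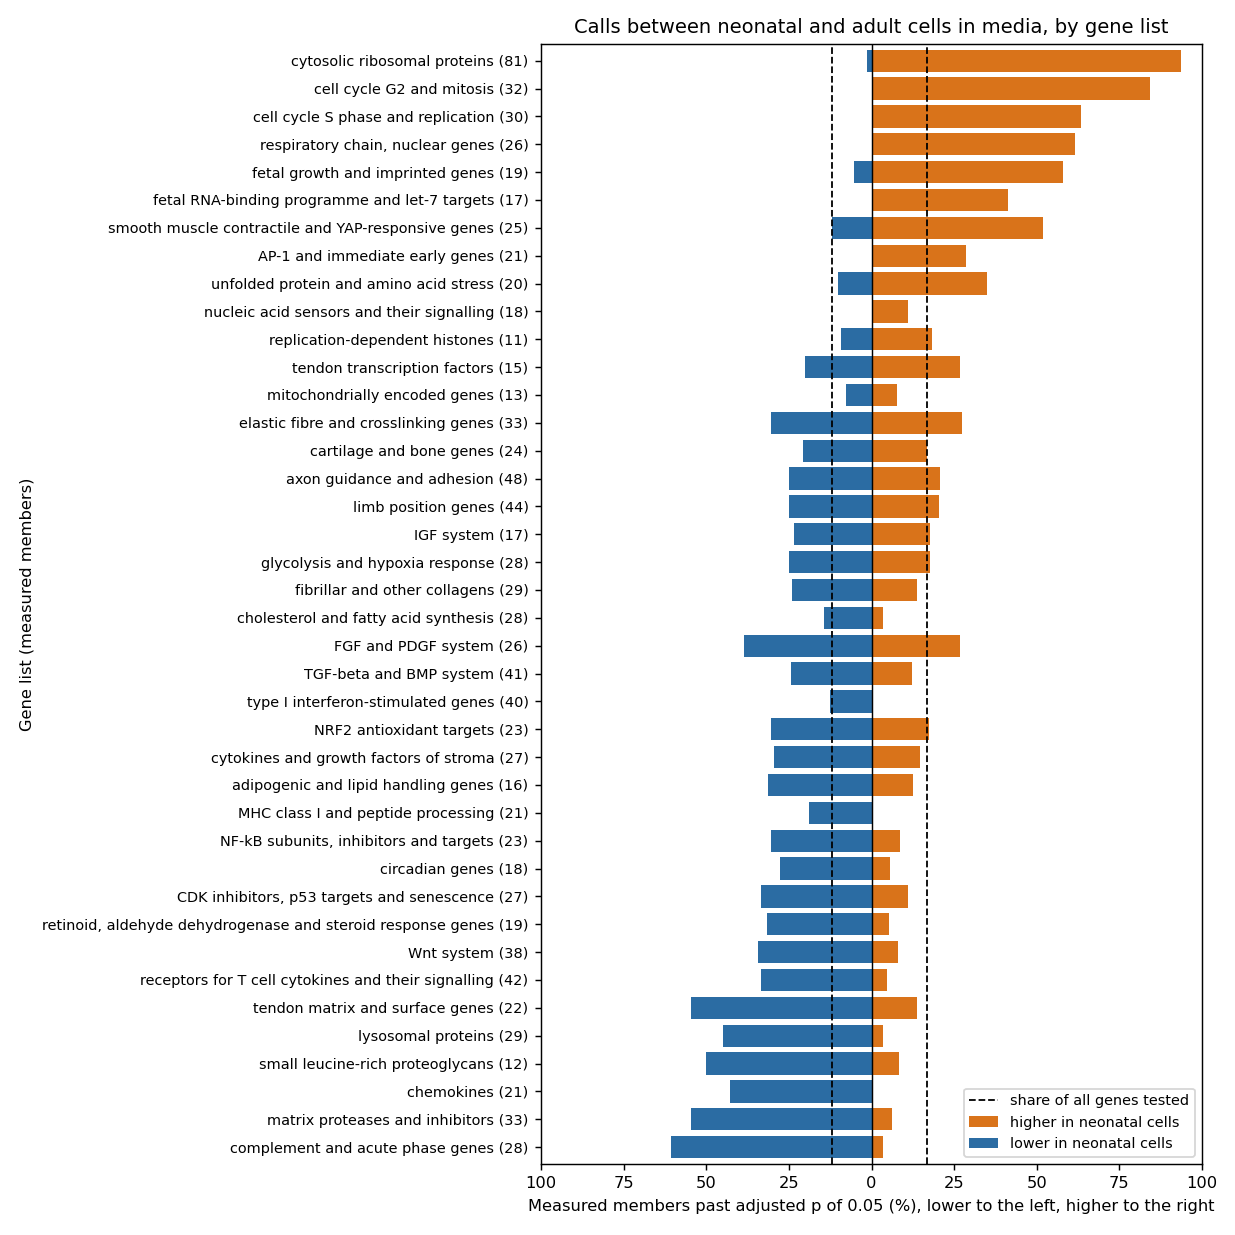
Share of the measured members past an adjusted p of 0.05 (horizontal axis, %) for each gene list with at least 11 measured members, higher in neonatal cells to the right in orange and lower to the left in blue, with dashed lines at the shares of all genes, 16.7 and 12.0%. Of the lists shown, ribosomal, cell cycle and respiratory chain lists reach farthest to the right, and complement, protease, tendon matrix and proteoglycan lists farthest to the left.

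Genes of fetal growth were higher in neonatal cells. Of 19 measured imprinted and fetal growth genes 11 were higher and 1, Dcn, lower, and the counts were 6 and 1 without the interferon-high pair. Igf2, the fetal insulin-like growth factor, had 4.00, 3.13 and 7.45 CPM in adult and 33.6, 25.3 and 10.9 CPM in neonatal libraries. The ages did not overlap, though neonatal library 3 came close to the adult values, and the rise of 2.21 ± 0.46 (SE, adjusted p = 0.00163) was no longer called without the pair (1.61, adjusted p = 0.0519). Mest, an imprinted hydrolase-fold gene, rose by 2.07 ± 0.35 (SE, adjusted p = 0.000295). Grb10, an adaptor that restrains insulin and IGF signalling, rose by 0.56 ± 0.07 (SE, adjusted p = 1.62e-05), and Slc38a4, an amino acid transporter of placenta and liver, by 3.40 ± 0.70 from under 0.3 CPM in every adult library.

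The RNA-binding proteins that sustain fetal growth programmes, and targets of the let-7 microRNAs that restrain them, had 7 of 17 members higher and 0 lower. Igf2bp1 stood at 7.30, 8.11 and 3.92 CPM in adult and 21.0, 28.0 and 30.7 CPM in neonatal cells and rose by 2.09 ± 0.34 (SE, adjusted p = 0.000217). Igf2bp3 (1.06 ± 0.14) and Igf2bp2 (0.74 ± 0.07), which also bind mRNAs of growth genes, rose less. Hmga2, a chromatin protein of embryonic mesenchyme, had 153, 131 and 145 CPM in adult and 323, 325 and 293 CPM in neonatal libraries and rose by 1.14 ± 0.07 (SE, adjusted p = 8.76e-09). Lin28b, which blocks let-7 maturation, was at or near the lowest value in all 6 libraries (0.184, 0.247 and 0.127 CPM in adult and 0.127, 0.127 and 0.448 CPM in neonatal libraries) and was not called. In the IGF system 3 of 17 genes were higher and 4 lower, Igfbp5 rising by 1.94 ± 0.33 while Igfbp4 (-1.03 ± 0.09), Igfbp6 (-0.92 ± 0.09), Igfbp2 (-1.07 ± 0.15) and Igf1 (-1.39 ± 0.26) fell. These binding proteins carry IGFs outside the cell.

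Cell cycle genes rose together. Of 32 genes of G2 phase and mitosis 27 were higher and 0 lower (median 1.19), and 24 and 0 without the interferon-high pair. Of 30 genes of DNA replication 19 were higher and 0 lower (median 0.75), and 14 and 0 without the pair. Tpx2, a spindle assembly factor, had 28.5, 21.6 and 25.8 CPM in adult and 63.5, 62.7 and 61.0 CPM in neonatal cells, with narrow spread in both, and rose by 1.31 ± 0.12 (SE, adjusted p = 6.43e-07). Mki67, the Ki-67 proliferation antigen, read 29.5, 28.0 and 19.6 CPM in adult and 44.3, 48.5 and 69.7 CPM in neonatal libraries and rose by 1.07 ± 0.18 (SE, adjusted p = 0.000353). Aurka (1.39 ± 0.15), the mitotic kinase Aurora A, Ccna2 (1.40 ± 0.19), cyclin A2, and the replication proteins Mcm2 (0.92 ± 0.12) and Pcna (0.57 ± 0.07) rose too. Of 27 CDK inhibitors, p53 targets and senescence genes 3 were higher and 9 lower (1 and 5 without the interferon-high pair). Cdkn2a, the Ink4a and Arf locus, fell by 0.44 ± 0.08 (SE, adjusted p = 0.000334) from 203, 201 and 212 to 171, 145 and 139 CPM, and Cdkn1a (p21) fell by 0.31 ± 0.06 (SE, adjusted p = 0.000742).

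Many mitotic genes carry the cell cycle homology region, TTTGAA, near their start site, through which the DREAM and FOXM1 complexes act. The promoters of 3 mitotic genes that rose, Cdc20 (1.30 ± 0.19), Ccnb2 (1.28 ± 0.27) and Plk1 (1.21 ± 0.18), are shown from RefSeq on GRCm38.p6, 250 bases before to 50 bases after the start site, with TTTGAA on either strand in capitals. The motif was present in 19 of 26 mitosis-list genes with a promoter in the table (73.1%) and in 5466 of 27025 of all genes (20.2%). A match is a description of letters and not of a bound site. They lie on the minus strand at chr4:118437294-118437593 and chr9:70421505-70421804 for Cdc20 and Ccnb2, and on the plus strand at chr7:122159185-122159484 for Plk1.
Cdc20: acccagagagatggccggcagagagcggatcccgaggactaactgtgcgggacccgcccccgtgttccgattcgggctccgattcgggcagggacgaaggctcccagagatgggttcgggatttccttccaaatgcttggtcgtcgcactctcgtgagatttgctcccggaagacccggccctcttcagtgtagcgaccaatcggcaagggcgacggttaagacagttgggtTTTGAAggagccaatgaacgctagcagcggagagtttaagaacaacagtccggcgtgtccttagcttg
Ccnb2: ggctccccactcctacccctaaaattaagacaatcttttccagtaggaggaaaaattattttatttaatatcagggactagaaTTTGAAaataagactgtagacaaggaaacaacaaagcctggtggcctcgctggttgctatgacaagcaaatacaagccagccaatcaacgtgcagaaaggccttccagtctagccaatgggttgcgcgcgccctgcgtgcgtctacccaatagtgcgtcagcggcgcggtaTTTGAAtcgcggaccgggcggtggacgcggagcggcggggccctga
Plk1: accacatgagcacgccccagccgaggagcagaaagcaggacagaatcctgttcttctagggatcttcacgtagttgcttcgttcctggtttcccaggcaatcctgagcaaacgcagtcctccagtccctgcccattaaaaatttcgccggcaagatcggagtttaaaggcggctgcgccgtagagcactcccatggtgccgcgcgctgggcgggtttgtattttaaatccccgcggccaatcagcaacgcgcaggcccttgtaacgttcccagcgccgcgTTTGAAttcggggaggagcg

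Ribosomal protein genes moved together, as 76 of 81 were higher in neonatal cells and 1, Rpl34, lower, with a median of 0.45. Together they took 2.11, 2.12 and 2.43% of all CPM in the adult and 3.20, 2.92 and 2.92% in the neonatal libraries. Rpsa, of the small subunit, had 578, 562 and 615 CPM in adult and 986, 916 and 919 CPM in neonatal cells and rose by 0.69 ± 0.05 (SE, adjusted p = 7.22e-08). Rplp0, a stalk protein of the large subunit, rose by 0.52 ± 0.06. The counts were 74 and 1 with TMM-like scaling or quantile normalization, and 63 and 1 without the interferon-high pair. Rpl34, Rps2 and Rps7 have near-identical copies, described further on, so their levels are uncertain. Sharing of reads was not measured for these or for the other members. Nuclear genes of the respiratory chain were higher for 16 of 26 members and lower for 0 (8 and 0 without the interferon-high pair), with Cox5a (0.74 ± 0.08) and Atp5b (0.40 ± 0.05) among them. Of 20 genes of the unfolded protein and amino acid responses 7 were higher and 2 lower (5 and 0 without the pair), with the serine synthesis enzymes Psat1 (0.87 ± 0.08) and Phgdh (0.76 ± 0.11) and the mitochondrial Shmt2 (0.59 ± 0.07).

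Contractile and YAP-responsive genes were higher for 13 of 25 members and lower for 3, and for 8 and 3 without the interferon-high pair. Tagln (SM22), an actin-binding protein, had 1061, 689 and 1186 CPM in adult and 1919, 1989 and 1659.9 CPM in neonatal cells. Adult library 2 was the lowest, the ages did not overlap, and Tagln rose by 0.96 ± 0.17 (SE, adjusted p = 0.000433). Cnn1 (calponin) rose by 1.21 ± 0.22 and Tpm2, a tropomyosin, by 0.90 ± 0.14. Acta2, smooth muscle actin and a mark of myofibroblasts, stood at 2708, 1683 and 3059.5 CPM in adult and 4307, 4738 and 3783 CPM in neonatal libraries and rose by 0.82 ± 0.20 (SE, adjusted p = 0.00455), a call that ended without the pair (0.56, adjusted p = 0.0646). Immediate early genes were higher for 6 of 21 members and lower for 0 (4 and 0 without the pair), with Myc at 0.80 ± 0.07 (SE, adjusted p = 6.5e-07).

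Signalling genes of the Wnt, PDGF and TGF-beta families moved in both directions. In the Wnt system 3 of 38 genes were higher and 13 lower (median -0.40), and 3 and 9 without the interferon-high pair. Sfrp1, a secreted Wnt antagonist, had 442, 560.4 and 427 CPM in adult and 56.3, 50.7 and 44.9 CPM in neonatal libraries, without overlap, and fell by 3.23 ± 0.13 (SE, adjusted p = 3.94e-11). Lgr5, the R-spondin receptor, fell by 2.89 ± 0.47 (SE, adjusted p = 0.000243) and the antagonists Sfrp2 (-1.89 ± 0.32) and Dkk2 (-1.37 ± 0.14) fell too. The ligands Wnt4 (1.51 ± 0.17), Wnt11 (1.38 ± 0.23) and Wnt5b (1.37 ± 0.28) were the higher members. In the FGF and PDGF system 7 of 26 were higher and 10 lower (6 and 6 without the interferon-high pair). Fgf10, a mesenchymal growth factor of limb buds, rose by 1.30 ± 0.18 and Fgf5 by 3.93 ± 0.68, while Fgf2 (-2.16 ± 0.36) and the receptor Pdgfrb (-0.84 ± 0.10) fell.

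TGF-beta induces Scx in tendon progenitors of mouse embryos. In the TGF-beta and BMP system 5 of 41 genes were higher and 10 lower (3 and 9 without the interferon-high pair). Tgfb3, a ligand, had 364, 235 and 316 CPM in adult and 735, 805 and 601 CPM in neonatal cells and rose by 1.24 ± 0.17 (SE, adjusted p = 4.45e-05). Inhbb, the activin B subunit, fell by 1.27 ± 0.11 (SE, adjusted p = 2.92e-07), and the receptors Tgfbr3 (-1.25 ± 0.12) and Tgfbr2 (-0.61 ± 0.13) fell. Gdf10, a distant TGF-beta family ligand, fell by 3.78 ± 0.33 (SE, adjusted p = 4.31e-07) to under 1 CPM in each neonatal library.

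Steroid and retinoid genes held some of the largest differences. Crabp1, a cytosolic carrier of retinoic acid, had 7.60, 8.11 and 10.2 CPM in adult and 108, 103 and 88.4 CPM in neonatal libraries and rose by 3.54 ± 0.18 (SE, adjusted p = 9.35e-10). It was the sole higher member of 19, while 6 were lower, including Pgr (-3.48 ± 0.50), the progesterone receptor, and Aldh1a2 (-2.38 ± 0.33), which makes retinoic acid. Of 44 genes of limb position 9 were higher and 11 lower, and 3 and 6 without the interferon-high pair. Tbx4 (0.70 ± 0.09) and Pitx1 (0.47 ± 0.10), hindlimb factors in mice, and Hoxd11 (1.54 ± 0.19) were higher. Hoxc6 (-1.11 ± 0.23), Hoxc5 (-2.07 ± 0.44) and Lmx1b (-1.43 ± 0.32), the last a dorsal limb factor, were lower. The labels do not name the tendons at each age beyond the tissue, so position and age cannot be told apart for these genes.

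Several lists of immune signalling genes had more members lower than higher in neonatal cells in media. Among nucleic acid sensors and their signalling, 2 of 18 were higher and 0 lower, and 0 and 1 without the interferon-high pair. Of 21 chemokine-list genes 9 were lower and 0 higher (median -0.57), and 7 and 0 without the interferon-high pair. Cxcl12, which retains and attracts leukocytes and stem cells, had 330.1, 398 and 419 CPM in adult and 39.8, 32.8 and 32.0 CPM in neonatal libraries. The ages were far apart and Cxcl12 fell by 3.45 ± 0.15 (SE, adjusted p = 8e-11). Ccl8 (-3.37 ± 0.21) and Ccl11 (-3.38 ± 0.31), which draw monocytes and eosinophils, Cxcl14 (-1.95 ± 0.23) and Ackr3 (-1.73 ± 0.14), the scavenging receptor of Cxcl12, fell too. Ccl2 was lower in every neonatal library, as were 18.7% of all genes, and was not called (-0.25 ± 0.12, adjusted p = 0.157).

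Complement and acute phase genes had 17 of 28 members lower and 1, Cd59a, higher, with a median of -1.44, and 15 and 1 without the interferon-high pair. C3, the central complement protein, had 17.9, 21.4 and 14.8 CPM in adult and 2.19, 2.95 and 0.859 CPM in neonatal cells and fell by 3.33 ± 0.38 (SE, adjusted p = 8.45e-06). C1s1, a protease of the classical pathway, read 184, 245 and 194 CPM in adult and 25.5, 21.9 and 18.9 CPM in neonatal libraries and fell by 3.23 ± 0.17 (SE, adjusted p = 1.83e-09). Its inhibitor Serping1 (-2.92 ± 0.27), C4b (-2.47 ± 0.29) and the acute phase protein Serpina3n (-2.48 ± 0.16) fell with it. Lbp, which binds bacterial lipopolysaccharide and is no member of the list, fell as well (-3.53 ± 0.26). The C1q genes of this list, made mainly by macrophages, are taken up with the markers of other cell types.

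Receptors for T cell cytokines and their signalling were lower for 14 of 42 members and higher for 2, and for 13 and 3 without the interferon-high pair. Tnfrsf1b, a TNF receptor, had 102, 102 and 112 CPM in adult and 30.6, 34.0 and 38.0 CPM in neonatal cells and fell by 1.63 ± 0.11 (SE, adjusted p = 1.87e-08). Ifngr1, a chain of the interferon-gamma receptor, fell by 0.52 ± 0.09 (SE, adjusted p = 0.000249) from 45.1, 47.1 and 43.6 to 34.6, 27.8 and 32.3 CPM. Jak1 (-0.42 ± 0.05), the kinase that serves it, Il6st (-0.65 ± 0.10), the shared receptor of the IL-6 family, and Lifr (-1.20 ± 0.20) fell. Il17ra overlapped between ages and was not called (-0.16 ± 0.18), and its sign turned without the interferon-high pair or without neonatal library 1 (0.06 and 0.07). Of 23 NF-kB genes 2 were higher and 7 lower (1 and 4 without the pair), with the adhesion molecules Vcam1 (-1.50 ± 0.10) and Icam1 (-1.27 ± 0.11) down and Ptgs2 (0.94 ± 0.21), the inducible prostaglandin synthase, up.

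Of 27 stromal cytokines and growth factors 4 were higher and 8 lower (2 and 6 without the pair), Kitl (-1.16 ± 0.13), stem cell factor, and the alarmin Il33 (-2.40 ± 0.40) falling. Il6 stayed between 0.127 and 1.41 CPM, overlapped between ages, and its call (log2 difference -1.63 ± 0.51, adjusted p = 0.0238) ended under several alternatives. Lysosomal proteins were lower for 13 of 29 members and higher for 1, Ctsc (1.72 ± 0.26), with the collagen-degrading cathepsin Ctsk at -0.66 ± 0.08 (SE, adjusted p = 1.12e-05). Without the pair 9 lysosomal members were lower and 1 higher.

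The interferon-stimulated genes showed no higher member and 5 lower of 40 with all 6 libraries, a share near the background of 12.0%. Ifit1, an interferon-induced RNA-binding protein, had 7.39, 43.3 and 3.90 CPM in adult libraries 1 to 3 and 39.9, 1.22 and 1.14 CPM in neonatal libraries 1 to 3. Adult library 2 and neonatal library 1 were high and alike, and the difference of -1.50 ± 1.07 (SE, adjusted p = 0.327) was not called. Without that pair the log2 difference of Ifit1 was -2.19 ± 0.60 (adjusted p = 0.0214 in limma). The pair was set apart by these same genes, so leaving it out narrows their spread. Calls of interferon-stimulated genes without it are therefore description only. Isg15, a ubiquitin-like modifier, read 2.73, 12.7 and 2.81 CPM in adult and 28.6, 1.86 and 0.757 CPM in neonatal libraries with the same pair high, and was not called (-0.42 ± 0.96) nor called without the pair (-1.22, adjusted p = 0.204). Irf7, a transcription factor that amplifies the response, overlapped as well (3.33, 15.97 and 4.32 CPM in adult and 19.9, 2.87 and 3.61 CPM in neonatal libraries).

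In the other 4 media libraries, 37 of the 40 genes were lower in neonatal than in adult cells, with a median difference of -0.81. In the interferon-high pair 23 were lower and the median difference was -0.21. Without the pair 7 members were called lower and 0 higher, against a background of 6.51% lower. These counts are no test, because genes of this list were what set the pair apart. The 5 called with all libraries were Slfn5 (-2.75 ± 0.38), Mx1 (-1.17 ± 0.19), Sp100 (-2.38 ± 0.70), Ifi27 (-0.54 ± 0.17) and Lgals3bp (-0.81 ± 0.26), of which the last 2 were not called without the pair (adjusted p = 0.059 and 0.0638). Slfn5 read 29.1, 79.5 and 32.7 CPM in adult and 9.78, 4.88 and 5.20 CPM in neonatal cells, apart between ages in spite of the high pair. Of 21 genes of MHC class I and peptide processing 4 were lower and 0 higher, with H2-T23 at -1.64 ± 0.21, and 2 and 0 without the pair. By rule the 6 genes whose mean in the pair lay farthest above that of the other 4 media libraries were Ifit1, Usp18, Slc27a1, Acap2, Pax5 and Apol9b. Acap2 varied widely, with a mean of 14.2 CPM (SD 12.2) in adult and 6.38 CPM (SD 10.7) in neonatal libraries. It was not over 1 log2 unit above the rest of its group in both libraries of the pair. Usp18, a brake on interferon signalling, read 3.70, 11.2 and 1.58 CPM in adult and 21.9, 0.910 and 0.662 CPM in neonatal libraries, and the B cell factor Pax5 0.127, 0.766 and 0.200 CPM in adult and 3.38, 0.127 and 0.127 CPM in neonatal libraries. None of the 7 interferon ligands listed was measured, so the source of the signal in the pair was not tested.

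**Figure D3:**
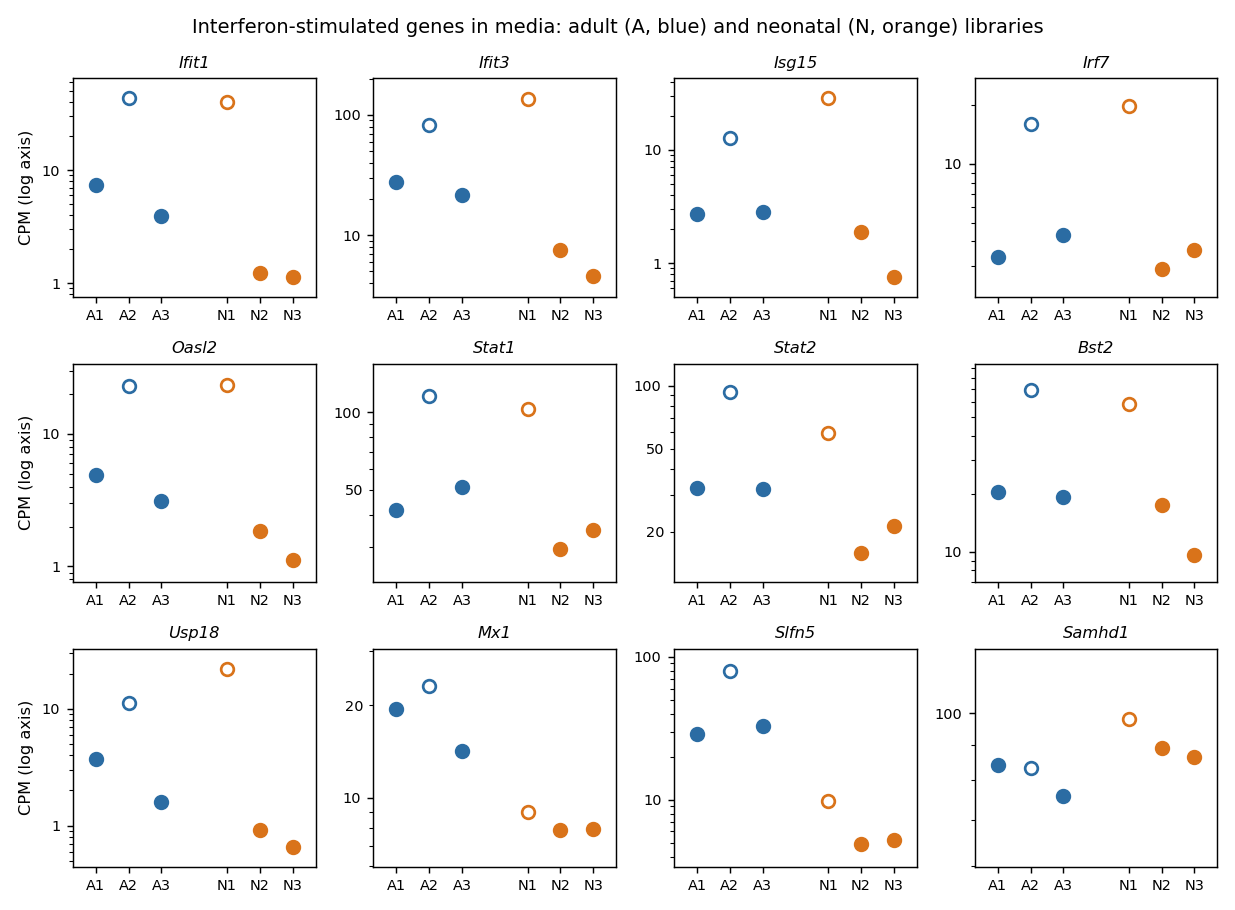
CPM (log axis) of 12 interferon-stimulated genes in adult (A1 to A3, blue) and neonatal (N1 to N3, orange) media libraries, 1 point per library, open for the interferon-high pair. In 9 panels both open points lie well above the others of their group, whereas Mx1 and Samhd1 differ less between libraries and Slfn5 is low in all neonatal libraries.

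Interferon-stimulated promoters carry a response element, GAAA followed by any 2 bases and GAAA again, bound by STAT and IRF factors. Of 28 interferon-list genes with a promoter listed by RefSeq, 13 held it on either strand (46.4%), against 1079 of 27025 of all genes (3.99%). The 3 promoters shown belong to genes high in the pair, on GRCm38.p6, with the element, on either strand, in capitals. Ifit1 and Ifit3 lie on the plus strand at chr19:34640639-34640938 and chr19:34583279-34583578, and Isg15 on the minus strand at chr4:156200769-156201068. Ifit3, a partner of Ifit1, read 27.4, 82.5 and 21.5 CPM in adult and 136, 7.56 and 4.56 CPM in neonatal cells.
Ifit1: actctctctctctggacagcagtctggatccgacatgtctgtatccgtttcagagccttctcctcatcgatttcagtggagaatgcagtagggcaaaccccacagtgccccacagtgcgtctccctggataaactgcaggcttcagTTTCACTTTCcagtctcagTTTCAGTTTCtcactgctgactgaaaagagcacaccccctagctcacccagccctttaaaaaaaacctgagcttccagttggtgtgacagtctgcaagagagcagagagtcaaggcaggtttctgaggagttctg
Isg15: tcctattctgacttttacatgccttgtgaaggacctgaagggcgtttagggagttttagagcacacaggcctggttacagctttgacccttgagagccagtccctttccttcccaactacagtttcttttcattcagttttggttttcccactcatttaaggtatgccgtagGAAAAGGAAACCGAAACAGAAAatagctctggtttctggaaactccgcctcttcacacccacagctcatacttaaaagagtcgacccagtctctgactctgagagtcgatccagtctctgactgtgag
Ifit3: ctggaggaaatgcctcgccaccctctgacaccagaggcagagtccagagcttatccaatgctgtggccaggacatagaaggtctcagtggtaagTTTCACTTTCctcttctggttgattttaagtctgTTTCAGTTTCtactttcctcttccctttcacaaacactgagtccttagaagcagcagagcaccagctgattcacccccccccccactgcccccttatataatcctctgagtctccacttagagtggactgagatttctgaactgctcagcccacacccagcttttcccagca

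Markers of other cell types moved with age. In bulk RNA, fewer cells of a type and less RNA per cell cannot be told apart. Of 8 measured Schwann cell genes 4 were higher in neonatal cells and 0 lower, and their summed level was 12.6, 12.1 and 15.7 CPM in adult and 49.7, 53.1 and 156 CPM in neonatal libraries. Sox10, the neural crest and Schwann cell factor, had 0.354, 0.257 and 0.579 CPM in adult and 5.21, 6.01 and 17.8 CPM in neonatal cells, highest in neonatal library 3, and rose by 4.46 ± 0.70 (SE, adjusted p = 0.000171). Ngfr (4.94 ± 0.40), the p75 neurotrophin receptor, Foxd3 (4.03 ± 0.51) and Erbb3 (2.87 ± 0.52) followed. Ngfr, Sox10 and the neural cadherin Cdh19 (4.68 ± 0.59) were among the 12 largest rises named further on, so those rises come with a marker set of another cell type whose part in them was not tested. Pcdh20 (3.77 ± 0.57), also among the 12, was highest in the same library. So was Fgf5, another of the 12, at 4.02, 3.98 and 10.7 CPM in neonatal libraries 1 to 3. Cadm4 (13.8, 14.5 and 46.3 CPM) and Sema4f (7.5, 8.6 and 17.6 CPM), named further on, were highest there too.

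Endothelial markers were lower in neonatal cells for 9 of 10 members and higher for 0, and for 8 and 0 without the interferon-high pair. Their summed levels were 239.7, 244 and 259 CPM in adult and 172, 171 and 165 CPM in neonatal libraries, most of it Eng, which mesenchymal cells also express. Cdh5, the vascular cadherin, had 8.25, 8.67 and 9.40 CPM in adult and 3.00, 0.988 and 1.52 CPM in neonatal libraries and fell by 2.41 ± 0.44 (SE, adjusted p = 0.000604). Macrophage markers were lower for 5 of 10 and higher for 0, and for 2 and 0 without the interferon-high pair, summing to 109, 134 and 106 and 40.0, 61.8 and 47.9 CPM. Lyz2 (-1.37 ± 0.20), C1qa (-2.65 ± 0.43) and Mrc1 (-1.15 ± 0.29) were among them, while Ptprc, the common leukocyte antigen, overlapped at 3.71, 1.06 and 0.786 CPM in adult and 0.425, 1.06 and 0.586 CPM in neonatal libraries. The falls of complement, chemokine and lysosomal genes came with this fall in macrophage and endothelial markers, and the part of these cells in them was not tested. T cell markers, of which 5 of 10 were measured, summed to at most 4.95 CPM.

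Genes of the Y chromosome were higher in all neonatal libraries, for 4 of 4 measured. Ddx3y had 4.81, 3.63 and 3.28 CPM in adult and 28.3, 27.8 and 29.0 CPM in neonatal libraries, and rose by 2.88 ± 0.32 (SE, adjusted p = 6.96e-06). Eif2s3y read 2.25, 1.68 and 2.28 CPM in adult and 18.7, 14.0 and 19.9 CPM in neonatal libraries (3.08 ± 0.35). These transcripts come from cells of males and were present at a low level in each adult library. Sex and age therefore cannot be told apart for genes that differ between sexes.

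Among the largest rises were names of gene copies. The 12 largest rises, among called genes with no overlap, a mean of at least 5 CPM in the higher group and no predicted name, included Rps2-ps10 (7.00 ± 0.46), Rpl34-ps1 (6.82 ± 0.21), Rps2-ps6 (5.76 ± 0.46), Ifi202b (5.50 ± 0.54), Ngfr, Cdh19, Scx, Sox10, Fgf5, Col2a1 and Pcdh20. Rpl34-ps1 had 0.365, 0.496 and 0.634 CPM in adult and 58.5, 52.7 and 53.5 CPM in neonatal libraries. Ifi202b, a DNA-binding interferon-inducible gene whose expression is known to differ between inbred mouse strains, read 0.185, 0.556 and 0.298 CPM in adult and 22.3, 10.7 and 11.9 CPM in neonatal libraries.

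Across all 18 libraries, 28 genes were over 1 log2 unit higher in the lowest neonatal library than in the highest adult one, and 4 were so in adult cells. These genes were picked for their values, so no test is given. Of the 28, 16 carry copy or pseudogene names. Each of the 16 matched the transcript of a coding gene at 95.7 to 99.9% identity (median 99.4%), 5 of them ribosomal protein genes. Besides these copies the 28 held Scx (2.04 to 19.4 CPM in the 9 adult and 127 to 384 CPM in the 9 neonatal libraries), Crabp1 (2.87 to 10.2 and 47.4 to 108), Ngfr, Ifi202b, Fgf5, Cdh19, Foxd3, Ddx3y, Fabp2, Sema4f, Olfml2b and Cadm4. The 4 that were higher in adult cells were Cxcl12 (330.1 to 875 and 22.6 to 75.1 CPM), Gpx3 (49.1 to 109 and 12.1 to 22.6 CPM), a secreted glutathione peroxidase, Abi3bp and Hist1h4m.

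A pair of copies is shown beside the coding parent because their sequences are nearly identical. Sharing of reads between copy and parent was not measured. The sequences are stretches of 120 bases from GENCODE M21 transcripts on GRCm38, aligned without gaps, with mismatched bases in capitals. Rpl34-ps1 (chromosome 6) and the open reading frame of Rpl34 (chromosome 3) differed at 2 of 354 bases, and Gm6472 (chromosome X) and that of Rps7 (chromosome 12) at 3 of 585.
Rpl34: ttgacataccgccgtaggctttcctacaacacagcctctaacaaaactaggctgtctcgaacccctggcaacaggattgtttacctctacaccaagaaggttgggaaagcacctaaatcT
Rpl34-ps1: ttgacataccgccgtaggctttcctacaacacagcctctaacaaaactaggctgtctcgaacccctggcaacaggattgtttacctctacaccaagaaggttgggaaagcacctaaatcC
Rps7: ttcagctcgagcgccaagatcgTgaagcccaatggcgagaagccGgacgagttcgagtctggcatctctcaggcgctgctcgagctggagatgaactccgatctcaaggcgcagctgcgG
Gm6472: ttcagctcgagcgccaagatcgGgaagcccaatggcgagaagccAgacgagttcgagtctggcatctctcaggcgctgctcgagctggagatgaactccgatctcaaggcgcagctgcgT

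Rpl34, the sole ribosomal protein gene that was lower, had 164, 166 and 191 CPM in adult and 85.6, 74.5 and 70.9 CPM in neonatal libraries (log2 difference -1.17 ± 0.08, adjusted p = 1.8e-08). With the reads of its copy added, the sums were 164 to 191 CPM in adult and 125 to 144 CPM in neonatal libraries. Rps7 was not called (0.05 ± 0.07, adjusted p = 0.675). Nor was Atp6v0c, a proton pump subunit (0.10 ± 0.05, adjusted p = 0.15), whose copy Gm15487 was among the 16. The labels give no strain. Strain and age cannot be told apart for the copies or for Ifi202b, nor for any other gene called here. The way of breaking up the digests also differed with age, and its part was not tested.

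**Figure D4:**
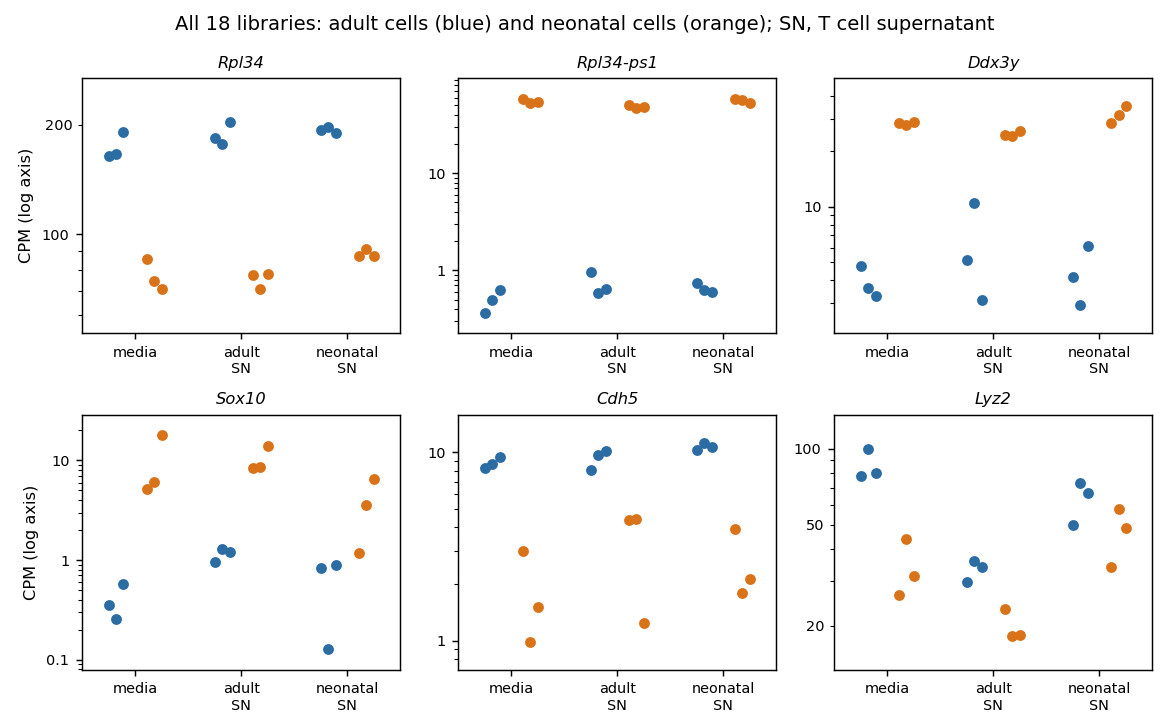
CPM (log axis) of Rpl34 beside its copy Rpl34-ps1, of Ddx3y and of markers of Schwann (Sox10), endothelial (Cdh5) and macrophage (Lyz2) cells in all 18 libraries, adult cells in blue and neonatal in orange, 1 point per library. The copy reaches at most 0.973 CPM in adult cells and lies at 47.3 CPM or more in neonatal cells, in media and with either supernatant.

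Among called genes with no overlap, a mean of at least 5 CPM in the higher group and no predicted name, the 12 largest falls in neonatal cells included Adamts15, Gdf10, Mmp3, Lbp, Dpt, Cxcl12, Serpinb6c, Ccl11, Ccl8, C3 and C1s1, from -3.90 to -3.23. Dpt (dermatopontin), a decorin-binding matrix protein that marks adventitial-type fibroblasts in mice, read 32.8, 50.7 and 36.8 CPM in adult and 4.59, 4.38 and 2.22 CPM in neonatal libraries and fell by 3.47 ± 0.47 (SE, adjusted p = 4.56e-05). Csf2ra, a chain of the GM-CSF receptor, had 2.70, 4.42 and 4.73 CPM in adult libraries and the lowest value, 0.127 CPM, in all 3 neonatal ones.

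The age difference was then compared with that under supernatant, measured in other libraries. With adult supernatant 2964 genes were called between ages (20.6%; 2120 higher, 14.7%, and 844 lower, 5.86%), and with neonatal supernatant 4290 (29.8%; 2515 higher, 17.5%, and 1775 lower, 12.3%). The split with adult supernatant, 71.5% higher, became 52.6% with TMM-like scaling. Of the 2398 genes higher in media, 1265 were also called higher with adult supernatant (52.8% of them and 59.7% of the 2120), and 1585 with neonatal supernatant (66.1 and 63.0%). Of the 1724 lower in media, 499 were called lower with adult supernatant (28.9 and 59.1%) and 950 with neonatal supernatant (55.1 and 53.5%). All 3 comparisons called 1040 higher and 446 lower.

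Scx and Cxcl12 kept their age difference. Scx differed by 4.50 ± 0.22 in media, 5.32 ± 0.22 with adult and 5.04 ± 0.22 with neonatal supernatant, and Cxcl12 by -3.45 ± 0.15, -3.89 ± 0.15 and -3.79 ± 0.15, with no call for an interaction. Interferon-stimulated genes, with 0 higher and 5 lower of 40 in media, had 2 lower with adult and 38 lower with neonatal supernatant. No member of the list had a called interaction in either case, so that a difference between the conditions was not shown. Cell cycle G2 and mitosis genes were higher for 27 of 32 in media, 24 with adult and 8 with neonatal supernatant. Called interactions were 0 with adult and 2 with neonatal supernatant, Tpx2 (-0.82 ± 0.17) and Anln (-0.84 ± 0.17). With neonatal supernatant 0.361% of all genes had a called interaction below 0.

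The test of the difference called 655 genes for adult supernatant against media (4.55%) and 123 for neonatal supernatant (0.855%), and 2566 and 1934 at an unadjusted p under 0.05. Without the interferon-high pair the counts were 360 and 59. Among the genes named by rule, Sfrp1 and Slc44a2 shared the smallest adjusted p for adult supernatant, and Sema7a had the smallest for neonatal supernatant. For Sfrp1, the age difference of -3.23 ± 0.13 in media was -0.57 ± 0.13 with adult supernatant, an interaction of 2.66 ± 0.18 (SE, adjusted p = 8.2e-07). In adult cells Sfrp1 went from 442, 560.4 and 427 CPM in media to 1848, 1768 and 1927 CPM with adult supernatant, while neonatal cells went from 56.3, 50.7 and 44.9 to 1134, 1318 and 1294 CPM. Sema7a, a membrane semaphorin, turned from 0.61 ± 0.13 in media to -1.88 ± 0.13 with adult and -1.43 ± 0.13 with neonatal supernatant, an interaction of -2.04 ± 0.18 (SE, adjusted p = 5.82e-05) for the latter.

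Complement, matrix and growth genes were among the interactions with adult supernatant. In the complement list 7 of 28 members had a called interaction above 0 and 0 below, with C1s1 at 2.60 ± 0.25 (SE, adjusted p = 1.26e-05) and C3 at 3.08 ± 0.53 (SE, adjusted p = 0.00358). Cholesterol and fatty acid synthesis genes, with 1 of 28 higher and 4 lower in media, had 18 higher and 0 lower with adult supernatant and 11 interactions above 0, against 3.0% of all genes. Col14a1, lower in neonatal cells in media, was higher there with adult supernatant (1.84 ± 0.25), an interaction of 4.25 ± 0.35 (SE, adjusted p = 1.9e-06). Hmga2 (-0.97 ± 0.10) and Igf2bp2 (-0.69 ± 0.10) had interactions below 0, called for 1.55% of all genes, their age differences in media shrinking to 0.16 and 0.05 with adult supernatant. Interactions share the media libraries with the comparison in media.

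**Figure D5:**
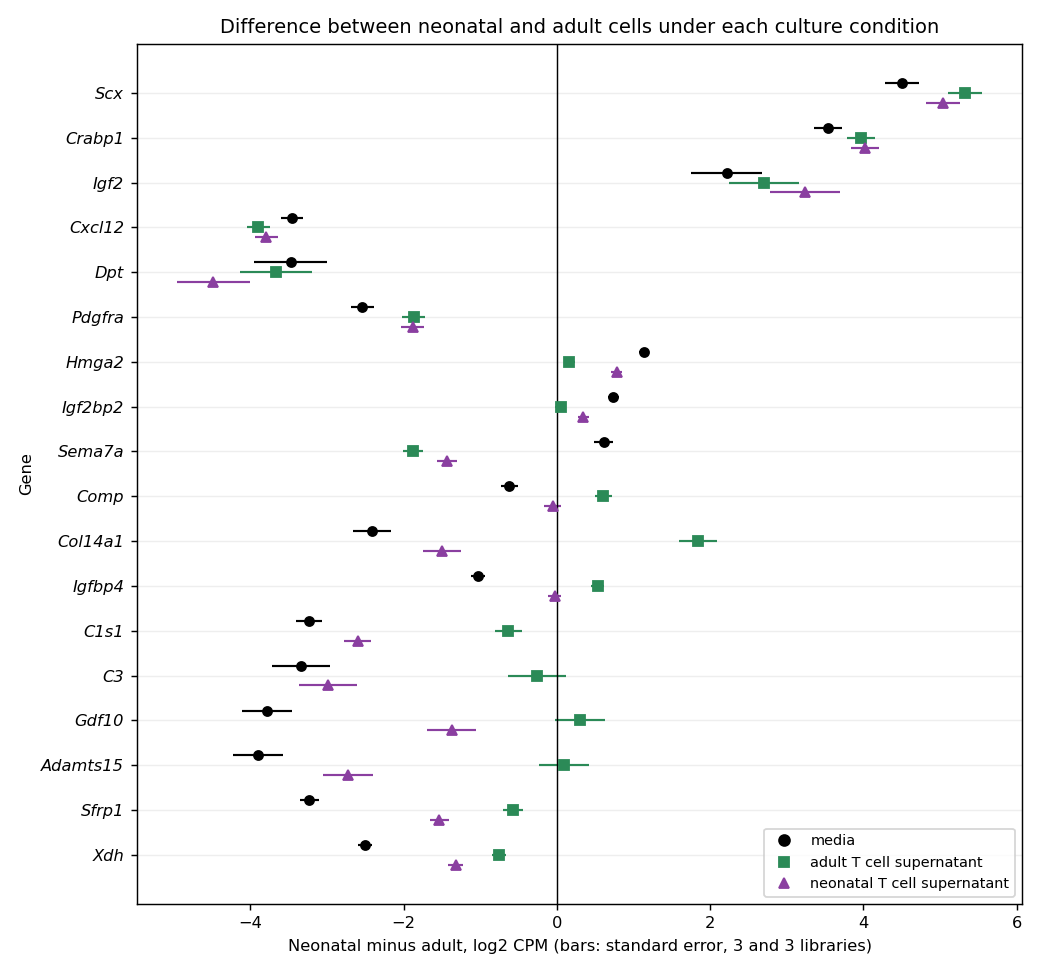
Difference between neonatal and adult cells (log2 CPM, horizontal axis, bars standard error, 3 and 3 libraries) for 18 genes in media (black circles), with adult (green squares) and with neonatal T cell supernatant (purple triangles). Scx, Crabp1, Cxcl12 and Pdgfra stay on their side in all 3 conditions, whereas C3, Gdf10 and Adamts15 lie near 0 with adult supernatant and Sema7a changes side.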

How the data were processed

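RNA was sequenced from 18 libraries of cultured mouse tendon cells, 3 in each of 6 groups of cell age and treatment. Per the labels' protocols, polyA RNA with a RIN above 6 was prepared with the NEBNext Ultra II kit and read as pairs of 150 bases. The deposited table holds log2 CPM of 14391 genes, made by the authors with kallisto (version not given in the sources used here), limma 3.56.2 and GRCm39, per the submitters' processing notes. Its lowest value, 0.127 CPM, is a fixed offset of 2 reads. Depth was estimated from the steps of low values, of which 13.7 to 19.3% were whole reads within 0.02 reads in the media libraries, against 7.93 to 12.0% at the best other total, so the depths are estimates only.

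The log2 CPM were fitted for all 18 libraries with limma 3.58.1 in R 4.3.3 (6 group means, eBayes with a trend, 12 residual degrees of freedom). Tests were two-sided with Benjamini-Hochberg adjustment over all genes at 0.05, and the code was tested on simulated data. Standard errors are those of the fit. Columns were matched to samples by their library names. No pairing by replicate number was seen in the deviations of the libraries from their group means, so no block was used.

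Genes named include the 12 most raised and 12 most lowered called genes. These had no overlap, a mean of 5 CPM or more in the higher group and no predicted name. Up to 6 called members per list by smallest p and 26 genes given whatever their value are named too. The rule adds the 6 genes whose mean in the interferon-high pair lies farthest above that of the other media libraries. It also adds the 5 interactions of each direction with the smallest p. Other members are given by value, and a few genes that the rule selects are not reported here. Members and lists were chosen with earlier results of these data known. A list is described by its counts and, where given, its median. Its counts are to be read beside the shares of all genes, 16.7% higher and 12.0% lower, or 9.62 and 6.51% without the interferon-high pair.

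Alternatives were other scaling (TMM-like, quantile), pseudocounts, filters on low values, no trend, array weights, fits of the compared groups only, a replicate block, and fits without each library or without the interferon-high pair. Copies were matched to GENCODE M21 transcripts with blastn 2.17.0. Printed sequences are on GRCm38, another build than that of the files, and no coordinates were carried between builds.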

Additional observations from a re-analysis of the deposited data

Results flagged for a closer look

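The age difference (neonatal minus adult, log2) itself differed between media and supernatant for 23 genes with adult and 14 with neonatal supernatant among the genes with the largest changes, those given whatever their value and those with the smallest interaction p, by limma's interaction test at an adjusted p under 0.05. Values below are the age difference with supernatant minus that in media. Other list members with a called interaction (Col14a1, Tpx2 and Anln among them) are given with the results above. No explanation was weighed, and each value shares the media libraries, among them the interferon-high pair.

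With adult supernatant, matrix and signalling genes that were lower in neonatal cells in media had values above 0. They were 4.00 for Adamts15, 4.09 for Gdf10, 2.66 for Sfrp1, 1.56 for Igfbp4 and 1.22 for Comp. Immune genes followed, at 3.08 for C3, 2.60 for C1s1, 2.33 for Lbp and 1.65 for Ccl8. Slc44a2 was at 1.78, Xdh at 1.75, Adra1d at 0.93, Fam115c at 0.75 and Cdkn1a at 0.32. Values below 0 were -0.88 for Tnc, -0.69 for Igf2bp2, -0.97 for Hmga2, -2.49 for Sema7a, -0.70 for Rasa1, -1.06 for Tmcc3, -1.43 for Gcnt4, -0.999 for Raph1 and -1.18 for Prl2c2.

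With neonatal supernatant, values above 0 were 2.41 for Gdf10, 1.70 for Sfrp1, 1.18 for Xdh, 1.02 for Adra1d, 1.00 for Igfbp4, 0.75 for Slc44a2, 0.59 for Fam115c and 0.56 for Cdkn1a. Values below 0 were -3.40 for Mpped2, -2.04 for Sema7a, -1.86 for Gcnt4, -1.64 for Prl2c2, -0.93 for Raph1 and -0.46 for Rasa1.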

How the results depend on the processing

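The count of 4122 genes between ages in media was 2322 without the interferon-high pair and 2966 to 3827 with each library left out. Of 795 values of 48 named genes under alternatives, 767 kept direction and side of the threshold, 10 were no longer called, 6 became called and 12 turned sign. Those 12 belong to genes not called with all libraries. They are Col1a2 with quantile normalization (0.0659), Il17ra without the pair (0.0579), and Lin28b with array weights (-0.13). With a library left out, Il17ra ranged from -0.27 (without neonatal library 2) to 0.0719 (neonatal library 1). Irf7 ranged from -0.93 (without neonatal library 1) to 0.64 (adult library 2), with 0.47 and 0.30 without neonatal libraries 2 and 3. Isg15 ranged from -1.95 (called, adjusted p = 0.0495, without neonatal library 1; 0.0495 to 0.996 over the libraries left out) to 0.67 (neonatal library 3), and Lin28b from -0.50 (neonatal library 3) to 0.41 (neonatal library 1).

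The interaction counts depended most on the fit. For adult supernatant, 655 became 1242 with array weights, 360 without the pair and 406 to 745 with a library left out, the lowest without adult library 1 or neonatal library 3 of that supernatant (406 and 418) or neonatal media library 2 (434). For neonatal supernatant, 123 became 209 with array weights, 29 with no trend, 39 with only the compared groups, 59 without the pair and 33 to 228 with a library left out, 33 and 228 without adult libraries 2 and 3 of that supernatant. The cause was not tested.

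Same-numbered libraries deviated together at correlations of -0.21 to 0.232 (median -0.005), so no pairing by number was seen. Low correlations cannot exclude a pairing. With a replicate block the counts were 4031 in media, 2898 and 4208 with adult and neonatal supernatant, and 645 and 115 for the interactions. With 3 libraries a group, small differences of genes near the lowest value may be missed, and fold changes there are understated. Without the offset of 2 reads, 3 reads equal about 0.172 to 0.190 CPM.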
